A study of Mus musculus with 11 samples.

Results

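The subject here is the interaction between the niche and the treatment in sorted ST-HSCs (short-term haematopoietic stem cells): for each gene, the treatment response in hosts lacking Cxcl12 minus the treatment response in hosts that had it. All 11 of the 11 libraries of the series enter this difference. The bulk RNA-seq libraries were made from cells of the bone marrow of C57BL/6j mice that had received marrow of an acute myeloid leukaemia carrying Flt3-ITD and lacking TET2, so every group shares that graft. The groups were CXCL12 WT with vehicle (libraries 240, 253 and 265), CXCL12 KO with vehicle (249 and 275), CXCL12 WT treated (252, 262 and 266) and CXCL12 KO treated (257, 263 and 276). The sample titles read Cre_neg for the WT and Cre_pos for the KO libraries. Treated hosts received cytarabine, doxorubicin and quizartinib together, so no drug can be read apart from the others. The promoter that drives the Cre, the cells that lost Cxcl12, the dosing, the age of the animals and any marker that would separate leukaemic from host stem cells are not given in the sources used here. Whether each library is a different animal is not stated either; p-values therefore measure the spread between these libraries, which may be technical.

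CXCL12 is a chemokine made by marrow stromal and endothelial cells, and its receptor CXCR4 on stem and progenitor cells helps to hold them in the marrow. ST-HSCs are multipotent cells that rebuild blood for a limited time, and in leukaemia the cells of that surface type can include stem cells that survive therapy. Flt3-ITD leaves the FLT3 receptor kinase switched on, which drives STAT5, ERK and PI3K signalling, and loss of TET2, a DNA demethylating enzyme, favours self-renewal. Cytarabine blocks DNA synthesis, doxorubicin poisons topoisomerase II, and quizartinib inhibits the FLT3 kinase. The series' title links niche Cxcl12 loss, the response to therapy and p38 MAPK, a kinase of the stress response, and the interaction asks at the level of RNA whether the treated cells of the KO niche moved away from their own vehicle controls differently from those of the WT niche.

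Depth ran from 8.13 to 31.1 M counts assigned to genes, and every treated library was deeper than every vehicle library (lowest treated 22.4 M, highest vehicle 22.2 M). Between 5.98% and 30.4% of reads fell outside annotated genes, most in KO treated 257. The share of the tested genes with no count was 26.2% in WT vehicle 253 and 21.7% in WT vehicle 265, and 1.88% to 11.2% in the other 9 libraries. Among stem cell genes, Kit lay between 20.5 and 243 CPM (counts scaled to the library total) and Cd34 between 111 and 497 CPM across the libraries. Slamf1, a marker of long-term stem cells, was at 0 in all 3 WT vehicle libraries. RNA of the granulocyte gene Mpo stood at 2260 to 15800 CPM, above Kit in every library. Tet2 reads were present in all 11 libraries (2.99 to 28.7 CPM), and counts summed over a whole gene do not show whether a part of it was deleted. Cxcl12 itself was at 0.00 to 14.4 CPM in these sorted cells, which are not its known source, so its level does not check the niche genotype.

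No gene passed the test of the interaction: edgeR's quasi-likelihood test with Benjamini-Hochberg adjustment called 0 of 16639 genes (0%), and the smallest adjusted p was 0.628. The interaction reached an unadjusted p under 0.05 in 1050 genes (6.31%): 506 had a positive difference (3.04%), meaning a higher treatment response in the KO niche, and 544 a negative one (3.27%). By other tools on the same libraries, limma voom with quality weights called 0 and DESeq2's Wald test called 61 (0.367% of the genes), 25 positive and 36 negative. All 36 of those negative genes had a WT vehicle mean under 1 CPM, and 26 of the 61 had a group with no count at all. Those 26 included positive genes that had no count in KO vehicle. Leaving out WT vehicle 240 gave 1 edgeR call, Actr6, at a log2 difference of -8.81 and an adjusted p of 0.0392, against -2.31 with all libraries. Since no gene was called, the log2 differences of single genes are given as measured sizes with their standard error (SE) after the ± sign, and edgeR's adjusted p is printed beside those whose unadjusted p was 0.05 or more. It was 0.767 for every gene with an unadjusted p under 0.05 other than Tyw5.

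The precision behind this count was low. The biological coefficient of variation was 0.783, and the median SE of the interaction was 1.27 on the log2 scale over all genes, with quartiles of 0.71 and 2.24. Among the 8512 genes with a mean of at least 10 CPM the median SE was 0.71. The 95% interval of Mapk14, for example, ran from -0.41 to 1.98. Leaving out single libraries moved the number of genes at an unadjusted p under 0.05 from 1050 to 601 (without KO vehicle 275), 633 (WT treated 262), 651 (KO vehicle 249), 688 (KO treated 263), 1898 (WT vehicle 240) and 2266 (KO treated 257). Of the 1050 genes, 383 were again under 0.05 in the same direction without 275, and 833 without 257.

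Of the 506 positive genes at an unadjusted p under 0.05, 427 (84.4%) had a KO response above 0 and a WT response below 0, against 21.3% of all genes. Of the 544 negative genes, 421 (77.4%) had a KO response below 0 and a WT response above 0, against 17.9% of all genes. A choice by interaction p favours opposite responses, so these shares describe the selection. The 2 directions differed in level. WT vehicle libraries averaged under 1 CPM for 357 of the 544 negative genes (65.6%), for 69 of the 506 positive genes (13.6%) and for 25.8% of all genes. Among genes with a mean of at least 10 CPM, 529 were at an unadjusted p under 0.05, 343 positive and 186 negative. The split depended on scaling: 48.2% of the 1050 genes were positive with TMM scaling, 35.5% of 972 with upper-quartile scaling (345 positive and 627 negative), 54.3% of 1051 with DESeq2 size factors and 61.4% of 971 once the transcript length trend of each library was removed. Upper-quartile scaling moved the median over all genes from 0.11 to -0.04, and every log2 difference here stands relative to that kind of shift.

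**Figure D1:**
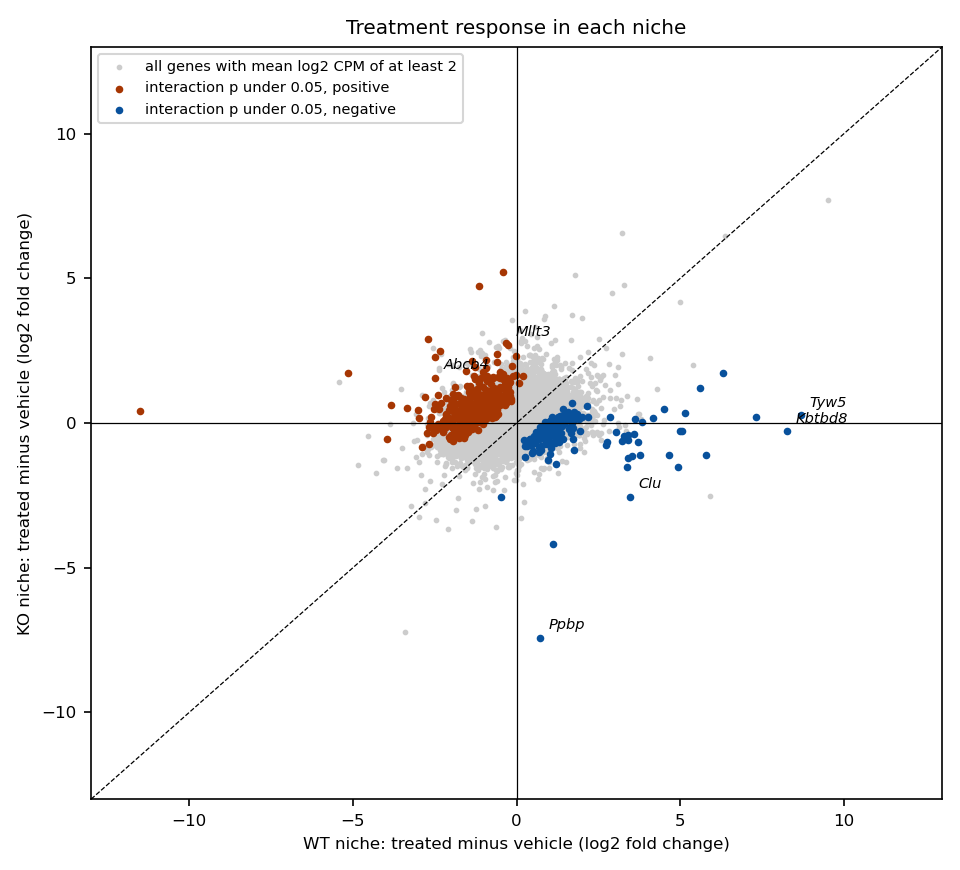
Treatment response in the WT niche (x axis) against the KO niche (y axis), both as log2 fold change of treated against vehicle, for genes with a mean log2 CPM of at least 2; points on the dashed line responded alike. Positive interaction genes (rust red, unadjusted p under 0.05) lie mostly in the upper left and negative ones (blue) mostly in the lower right; Tyw5 and Kbtbd8 lie far right because their WT vehicle level was at or near 0.

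A separate description goes by the order of the libraries. It asks for treated and vehicle libraries that do not overlap in either niche, with opposite directions in the niches. With 2 or 3 libraries in a group, such an order can arise without a difference between groups, and how often was not tested. The description was met by 211 genes (1.27%). In 76 of them (0.457%) the KO treated libraries all lay above and the WT treated libraries all below their vehicle controls, with a median interaction of 1.53 made of a KO response of 0.66 and a WT response of -0.86. In the other 135 (0.811%) the order was the reverse, with a median of -2.74. WT vehicle averaged under 1 CPM for 0 of the 76 and 75 of the 135. This membership moved with scaling and with the length trend: 27 of the 76 and 103 of the 135 met it with upper-quartile scaling, 73 and 116 with DESeq2 size factors, and 25 and 66 with the length trend removed. Within a group, CPM values are listed in the order of the libraries named above.

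The genes described next had the smallest p in their direction at a mean log2 CPM of 2 or more, over all genes or within the 211, and no theme among them was tested. Rb1cc1 encodes FIP200, the scaffold of the kinase complex that starts autophagy. Its level was 66.9, 67.4 and 58.3 CPM in WT vehicle and 30, 22 and 22.3 CPM in WT treated libraries, against 35.7 and 34.4 CPM in KO vehicle and 41.2, 54.7 and 64.9 CPM in KO treated libraries. The treated libraries thus lay below vehicle in the WT niche and above vehicle in the KO niche, with no overlap in either, and the interaction was 1.99 ± 0.46 (adjusted p = 0.767). Pink1, the kinase that marks damaged mitochondria for autophagy, read 107, 162 and 175 CPM in WT vehicle, 53, 61 and 54.4 in WT treated, 84.3 and 92.5 in KO vehicle and 64.4, 137 and 142 in KO treated libraries. Its KO treated libraries straddled KO vehicle, since 257 lay below and 263 and 276 above, while all 3 WT treated libraries lay below WT vehicle (interaction 1.78 ± 0.51). Vcp, the ATPase that pulls ubiquitinated proteins out of complexes and membranes, was at 368, 471 and 471 CPM in WT vehicle and 173, 179 and 177 CPM in WT treated libraries, a tight and separate group. In the KO niche it was at 381 and 332 CPM (vehicle) and 405, 334 and 367 CPM (treated), which overlap, with an interaction of 1.35 ± 0.38. Ttc3, a ubiquitin ligase that targets active AKT, had an interaction of 1.98 ± 0.55, with KO treated 276 inside the range of KO vehicle.

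Rnf20, the ubiquitin ligase of histone H2B, was level across WT vehicle libraries (63.5, 64.7 and 63.5 CPM) and lay at 28.8, 28.6 and 36.3 CPM in WT treated ones. KO vehicle libraries were again close together (40.6 and 40.1 CPM), with KO treated libraries above them at 72.8, 52.7 and 56.3 CPM. That placed KO treated near WT vehicle and WT treated lowest of all (interaction 1.62 ± 0.42). Baz2a, a subunit of the complex that silences ribosomal DNA repeats, gave 49.9, 52.6 and 71.8 CPM in WT vehicle, 31.2, 18.2 and 32.1 in WT treated, 28.6 and 26.4 in KO vehicle and 59.8, 40.9 and 36.9 in KO treated libraries, also without overlap in either niche (1.84 ± 0.53). Trim24, a bromodomain reader and p53 ubiquitin ligase, was lowest in KO vehicle (4.83 and 2.7 CPM) and higher in KO treated libraries (10.4, 16.1 and 12.6 CPM). Its WT libraries went from 10.4, 24.2 and 28.6 CPM with vehicle to 10.3, 5.9 and 5.42 CPM with treatment, where 252 came just below the lowest vehicle library, for an interaction of 3.33 ± 0.92. Kmt2d, a histone H3 lysine methyltransferase of enhancers, separated in the WT niche (58.7, 66.3 and 93.5 CPM against 21.9, 19.6 and 27.7 CPM with treatment) and overlapped in the KO niche (40.9 and 50.6 CPM against 52.5, 55.1 and 47.4 CPM), with an interaction of 1.83 ± 0.46. Parp10, a mono-ADP-ribosyltransferase, followed the same arrangement, with WT treated libraries at 10.8, 10.7 and 6.76 CPM below WT vehicle at 40.3, 60.6 and 35.3 CPM and KO treated libraries at 13.5, 23.9 and 19.8 CPM on both sides of KO vehicle at 17.9 and 18.3 CPM (2.34 ± 0.63).

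Abcb4, a membrane transporter of phosphatidylcholine from the family of the multidrug pumps, was at 8.79, 17 and 7.76 CPM in WT vehicle and only 1.86, 2.89 and 1.24 CPM in WT treated libraries. The KO niche showed 7.16 and 13.4 CPM with vehicle and 23.4, 15.8 and 52.3 CPM with treatment, so all 3 KO treated libraries lay above both KO vehicle libraries, by the least in 263. The interaction was 4.05 ± 1.0 (95% interval 1.87 to 6.23), and it ranged from 3.09 to 4.91 over the 21 alternatives tried. Myo5a, a motor that carries vesicles along actin, stood at 71.7, 119 and 86.7 CPM in WT vehicle, 49.2, 34.7 and 40.1 in WT treated, 53.7 and 59.5 in KO vehicle and 65, 98.9 and 78.2 in KO treated libraries, without overlap (1.67 ± 0.46). Akap13, an anchor of protein kinase A, stood at 192, 259 and 228 CPM, 153, 116 and 113 CPM, 157 and 205 CPM and 255, 291 and 246 CPM in the same order of groups (1.37 ± 0.40). The aminopeptidase gene Rnpepl1 met the description too, though KO treated 257 lay only just above KO vehicle (39.8, 50.8 and 41.8 CPM against 38.1 and 38.5 CPM), and its interaction was 1.99 ± 0.58. Of the remaining genes among the 15 smallest p in this direction, Cc2d1b had an interaction of 2.42 ± 0.67, Zfp758 of 2.95 ± 0.81, Ccdc18 of 2.35 ± 0.65 and Gpatch1, a gene of pre-mRNA splicing, of 2.26 ± 0.64. In all 4 the treated and vehicle libraries overlapped in at least 1 niche.

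The 186 negative genes at an unadjusted p under 0.05 with a mean of at least 10 CPM are represented here by named genes whose WT vehicle level was not near 0. Sec13, a coat protein of vesicles that leave the endoplasmic reticulum and also part of the nuclear pore, read 124, 123 and 148 CPM in WT vehicle and 208, 284 and 299 CPM in WT treated libraries. KO vehicle libraries were at 229 and 186 CPM and KO treated ones at 158, 118 and 171 CPM, so the order of treated and vehicle was opposite in the niches with no overlap (interaction -1.48 ± 0.41). Tor1a, an ATPase of the endoplasmic reticulum and nuclear envelope, was at 87.6, 85.1 and 38.2 CPM in WT vehicle, 123, 133 and 154 in WT treated, 100 and 114 in KO vehicle and 62.5, 55.2 and 76.9 in KO treated libraries (-1.68 ± 0.50). The groups were again separate in both niches, with the KO treated libraries in the range of WT vehicle. Ostc, a subunit of the complex that attaches sugars to new proteins, separated in the WT niche only (127, 166 and 129 CPM against 313, 334 and 375 CPM), because KO treated 257 at 203 CPM lay above both KO vehicle libraries (-1.59 ± 0.46).

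Clns1a, a chaperone that helps to load Sm proteins onto small nuclear RNAs, stood at 84.5, 80.3 and 110 CPM in WT vehicle, 165, 236 and 185 in WT treated, 174 and 144 in KO vehicle and 140, 117 and 134 in KO treated libraries (-1.38 ± 0.40). Dcaf13, needed for ribosome production, showed the same order of groups at 68.4, 42.1 and 34.2 CPM, 102, 119 and 102 CPM, 106 and 82.8 CPM and 80.6, 65.6 and 78.5 CPM (-1.49 ± 0.46). By group means, WT vehicle was lowest in both genes and KO treated lay between WT vehicle and KO vehicle. Mmadhc, which directs vitamin B12 to its enzymes, had KO treated libraries at 57.7, 65.3 and 87.6 CPM below KO vehicle at 91.6 and 103 CPM, and WT treated at 91.5, 122 and 136 CPM above WT vehicle at 57.6, 70.8 and 51.5 CPM (-1.43 ± 0.43). Mtch2, an insertase of the mitochondrial outer membrane, was at 88.2, 96 and 94 CPM in WT vehicle and 217, 308 and 266 CPM in WT treated libraries, and in the KO niche treated libraries lay on both sides of vehicle (-1.41 ± 0.40). Pop4, a subunit of RNase P, had an interaction of -2.22 ± 0.65.

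**Figure D2:**
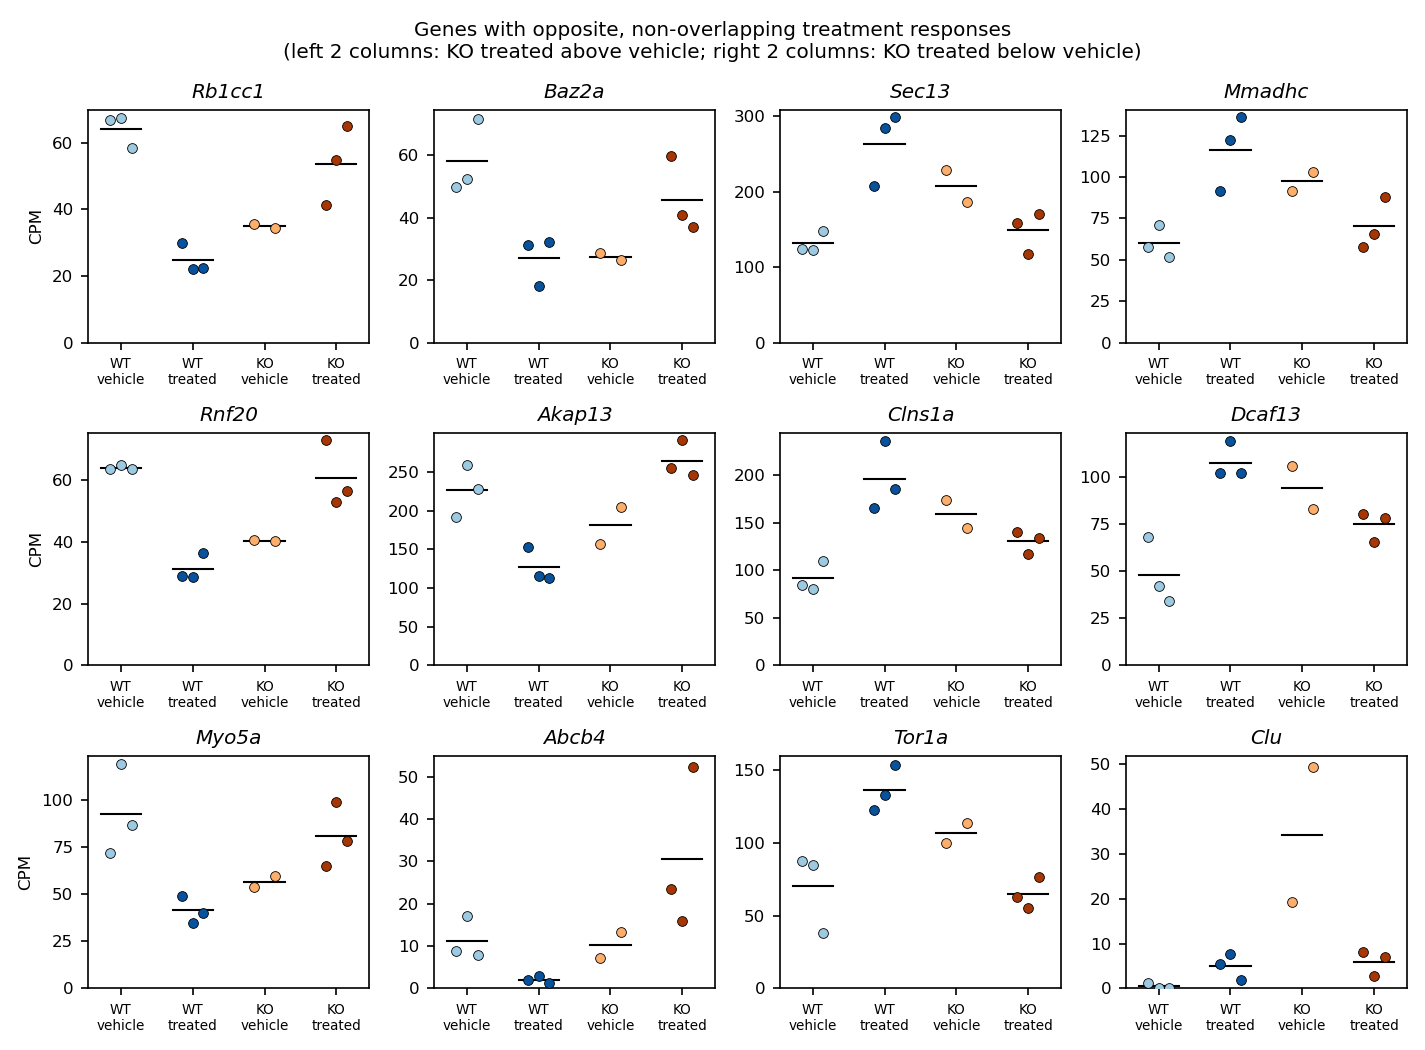
CPM of 12 genes in each library (points) by group, with the group mean as a bar; y axes start at 0 and differ between panels. In the 6 genes on the left WT treated lies below and KO treated above the vehicle libraries of the same niche (Rb1cc1, for example), and in the 6 genes on the right the order is reversed (Sec13, for example).

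Named genes (mean log2 CPM of at least 2) that met the no-overlap description and had an entry were ranked by p. The promoter sequences of the first 2 in each direction are shown, so that the sequence upstream of such responses can be read. They come from RefSeq on GRCm38.p6, while the deposited counts are on GRCm39; each window covers 250 bases before to 50 bases after an annotated start, 5′ to 3′ on the gene's strand. Windows are chr5:8893471-8893770 (+ strand) for Abcb4, chr4:49638375-49638674 (+ strand) for Rnf20, chr6:113740632-113740931 (- strand) for Sec13 and chr7:97696407-97696706 (+ strand) for Clns1a. Capitals mark matches on either strand to the 8 motifs that were searched.
Abcb4: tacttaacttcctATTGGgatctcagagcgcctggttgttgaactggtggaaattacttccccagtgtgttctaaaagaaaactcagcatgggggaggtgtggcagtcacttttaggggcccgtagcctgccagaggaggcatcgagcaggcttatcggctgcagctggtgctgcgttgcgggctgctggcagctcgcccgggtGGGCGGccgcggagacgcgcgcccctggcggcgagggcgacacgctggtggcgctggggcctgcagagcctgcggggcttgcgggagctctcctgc
Rnf20: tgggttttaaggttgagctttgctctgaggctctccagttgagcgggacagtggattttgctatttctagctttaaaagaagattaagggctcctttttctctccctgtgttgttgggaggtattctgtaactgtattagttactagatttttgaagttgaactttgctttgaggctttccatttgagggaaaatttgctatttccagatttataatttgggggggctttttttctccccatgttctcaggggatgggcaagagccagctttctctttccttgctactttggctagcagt
Sec13: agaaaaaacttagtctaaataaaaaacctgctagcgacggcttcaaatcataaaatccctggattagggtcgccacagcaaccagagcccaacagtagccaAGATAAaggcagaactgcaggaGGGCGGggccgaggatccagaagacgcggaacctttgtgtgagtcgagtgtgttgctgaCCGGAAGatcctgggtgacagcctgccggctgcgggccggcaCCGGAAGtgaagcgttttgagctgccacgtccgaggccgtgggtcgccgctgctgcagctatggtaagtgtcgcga
Clns1a: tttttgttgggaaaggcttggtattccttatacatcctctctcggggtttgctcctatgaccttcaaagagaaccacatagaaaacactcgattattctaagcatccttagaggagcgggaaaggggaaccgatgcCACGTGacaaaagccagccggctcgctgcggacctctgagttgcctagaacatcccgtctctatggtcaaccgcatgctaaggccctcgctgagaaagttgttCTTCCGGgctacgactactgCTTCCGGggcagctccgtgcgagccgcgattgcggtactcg

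Abcb4 held 1 GC box (GGGCGG) and 1 CCAAT box (CCAAT), Sec13 held 1 GC box, 2 ETS motifs (CCGGAAG) and 1 GATA motif (AGATAA), Clns1a held 2 ETS motifs and 1 E-box (CACGTG), and Rnf20 held none of the motifs searched in this window. The other letters searched were TGACGTCA (CRE), TGACTCA (AP-1) and AAGATGGC (YY1), and no motif is a part of another. Of the 211 genes, 146 had at least 1 promoter entry. The ETS letters were in 8.86% of all 32851 promoters, in 16.4% of the 14139 promoters of tested genes, in 25% of the 100 promoters of the negative set and in 12% of the 92 promoters of the positive set. The GC box was in 35.7% of all promoters, 58.8% of those of tested genes, 68.5% of the positive set and 50% of the negative set. AP-1 letters were in 5.2%, 3.92%, 5.43% and 3% and CCAAT in 37.4%, 37.2%, 29.3% and 31% in the order all, tested, positive and negative. E-box letters were in 7.15%, 9.55%, 12% and 17%, GATA letters in 11.2%, 7%, 5.43% and 8%, and YY1 letters in 2.75%, 4.15%, 7.61% and 6%. CRE letters were in 1.79%, 2.89%, 1.09% and 1%. These are counts of letters, with no test, and some genes have several entries.

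The smallest p values of all belonged to genes that were almost unread in the WT vehicle libraries. Tyw5, an enzyme of a modified base in phenylalanine tRNA, was at 0.0646, 0 and 0 CPM in WT vehicle, a total of 1 count, and at 9.62, 12.8 and 14.6 CPM in WT treated libraries. In the KO niche it stood at 6.76 and 5.81 CPM with vehicle and 8.18, 5.83 and 8.74 CPM with treatment, so the 3 WT vehicle libraries were apart from the other 8 (adjusted p = 0.628). Zc3h8, a component of a complex that transcribes small nuclear RNA genes, showed the same, at 0.129, 0.0583 and 0 CPM in WT vehicle, 9.34, 10.3 and 16.4 in WT treated, 6.98 and 4.54 in KO vehicle and 11, 5.77 and 3.19 in KO treated libraries. Fkbp9, a folding enzyme of the endoplasmic reticulum, was at 0.129, 0.0583 and 0.123 CPM in WT vehicle and between 1.34 and 21.0 CPM in the 8 others. Gdf3, a ligand of the TGF-beta family, lay at 0.129, 0.0583 and 0 CPM in WT vehicle and 1.60 to 24.6 CPM elsewhere, and Kbtbd8, an adaptor of CUL3 ubiquitin ligases, at 0 in WT vehicle and 0.826 to 15.6 CPM elsewhere. For these genes the difference between niches is a difference between a WT vehicle group near 0 and a KO vehicle group that is not, and a fitted log2 difference depends on the count added to zeros, so none is given.

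Clu, Gdpgp1 and Pigg combined that feature with lower KO treated libraries. Clu, the secreted chaperone clusterin, read 1.1, 0.175 and 0 CPM in WT vehicle, 5.44, 7.77 and 1.81 in WT treated, 19.3 and 49.4 in KO vehicle and 8.09, 2.75 and 6.93 in KO treated libraries. KO vehicle was thus the high group and WT vehicle the low one, and the treated libraries of both niches lay together between them (interaction -6.01 ± 1.56). Gdpgp1, a phosphorylase of GDP-glucose, stood at 14.6 and 13.1 CPM in KO vehicle and 9.01, 10.3 and 6.93 CPM in KO treated libraries, against 1.1, 0.0583 and 0.739 CPM in WT vehicle and 6.65, 11.7 and 6.3 CPM in WT treated ones (-4.36 ± 1.26). Pigg, an enzyme of the GPI anchor, was at 14.3 and 14.3 CPM in KO vehicle and 1.01, 7.94 and 11.1 CPM in KO treated libraries. It had 2 counts in all in WT vehicle. The WT vehicle group held 20 counts for Clu and 24 for Gdpgp1, so their log2 differences also rest on few counts. WT vehicle 253 and 265 were also the libraries with the largest shares of genes at 0, given above, and the part of that in these differences was not tested.

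Lists of genes by cell type and pathway are described by counts and medians beside those of all genes, of which 53.6% lay above 0 and 46.4% below, with a median of 0.11. Over the 21 alternatives that median ran from -0.12 (without WT vehicle 240) to 0.34 (length trend removed). No member of any of the 34 lists was called.

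Red cell genes had the largest positive median. Of 29 tested erythroid genes, 28 lay above 0, 2 of them at an unadjusted p under 0.05, with a median of 2.17 made of a median KO response of 1.93 and a median WT response of -0.21. Fech, the last enzyme of haem synthesis, was at 66, 46.1 and 101 CPM in WT vehicle and 27.1, 38.5 and 23.2 CPM in WT treated libraries, against 60.9 and 213 CPM in KO vehicle and 88.4, 291 and 1190 CPM in KO treated libraries (3.20 ± 1.18). KO treated 276 was the highest library, and KO treated 257 lay between the KO vehicle libraries. Sptb, erythroid spectrin, lay at 8.18 to 140 CPM in KO treated libraries and at 2.15 and 16 CPM in KO vehicle, which overlaps them. In all 6 WT libraries it was at 0 to 1.97 CPM (5.16 ± 2.36, adjusted p = 0.767). The WT treated group held 8 Sptb counts in all, so this log2 difference rests on few counts. The erythroid genes together summed to 24800 to 118000 CPM in KO treated libraries, 1360 and 20000 CPM in KO vehicle, 821 to 1830 CPM in WT vehicle and 1210 to 1470 CPM in WT treated libraries. The list's median was 4.26 without KO vehicle 275 and 0.98 without KO treated 276, and it stayed above 0 in all 21 alternatives. In bulk RNA, more cells of a type and more RNA per cell cannot be told apart, and globin reads reached 10.5% of the gene counts in 276. The part of red cell RNA in the differences of other genes was not tested.

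Platelet and megakaryocyte genes had the lowest median of the lists. Of 17 tested, 14 lay below 0, 4 of them at an unadjusted p under 0.05, with a median of -1.56. Ppbp, a platelet chemokine, was at 0.582 and 251 CPM in KO vehicle, 0.506, 0.966 and 0.704 in KO treated, 4.07, 0.233 and 0 in WT vehicle and 1.45, 0.692 and 5.21 in WT treated libraries. Treml1 and Clec1b, receptors of platelets, had the same high library, at 35.6 and 29.6 CPM in KO vehicle 275, and each was at most 5.32 CPM in every other library. Library 275 was the highest for all 3 genes, and without it the median of the list was -0.07. Without WT vehicle 240 it was -4.40. The list summed to 278 and 1110 CPM in KO vehicle, 213 to 402 CPM in KO treated, 257 to 432 CPM in WT vehicle and 295 to 488 CPM in WT treated libraries.

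Granulocyte genes lay below 0 in 23 of 26 cases, with a median of -1.18 (KO response -1.06, WT response 0.26). Ly6g, the neutrophil surface marker, was at 33.3, 12.1 and 23.2 CPM in WT vehicle, 23, 38.8 and 169 in WT treated, 12.8 and 98.9 in KO vehicle and 32.3, 20.1 and 34.7 in KO treated libraries, and the groups overlapped in both niches (-2.69 ± 1.19). The protease gene Ctsg had an interaction of -1.69 ± 0.87 (adjusted p = 0.767) and Prtn3 of -1.45 ± 0.77 (adjusted p = 0.767). Without WT treated 266, the library with the highest granulocyte sum at 174000 CPM, the median of the list was -0.11, and without WT vehicle 253 and 265 it was -2.17. The sums were 12500 to 37300 CPM in KO treated, 43300 and 69000 CPM in KO vehicle, 33600 to 174000 CPM in WT treated and 41700 to 110000 CPM in WT vehicle libraries. Monocyte and macrophage genes lay above 0 in 14 of 21 cases with a median of 0.59. It was -0.06 without KO vehicle 249 and 1.64 without KO vehicle 275. Their sums went the other way. In the KO niche they were 3580 and 10800 CPM with vehicle and 2800 to 5860 CPM with treatment, which overlap. In the WT niche they were 5360 to 12800 CPM with vehicle and 7850 to 19200 CPM with treatment, which overlap too.

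Lymphoid and stromal genes were low and their medians moved with single libraries. B cell genes summed to 420 to 1470 CPM over all libraries, with 6 to 8 of the 16 at 0 in WT vehicle libraries. Their median was -1.05. It was -1.89 without WT vehicle 240 and 0.42 with the filter at a mean CPM of 10. T and NK cell genes had a median of -0.05, which was 2.11 without KO vehicle 275 and -2.18 without WT vehicle 240. Stromal and endothelial genes had -1.24, which was 3.65 without 275 and -2.17 without 249. A group had no count in 8 of the 19 T and NK cell genes and 5 of the 17 stromal genes. With such groups held at a floor of 3 counts, the medians were 0.15 for T and NK cells and 0.36 for stroma. Mast cell, basophil and eosinophil genes lay 8 above and 8 below 0.

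**Figure D3:**
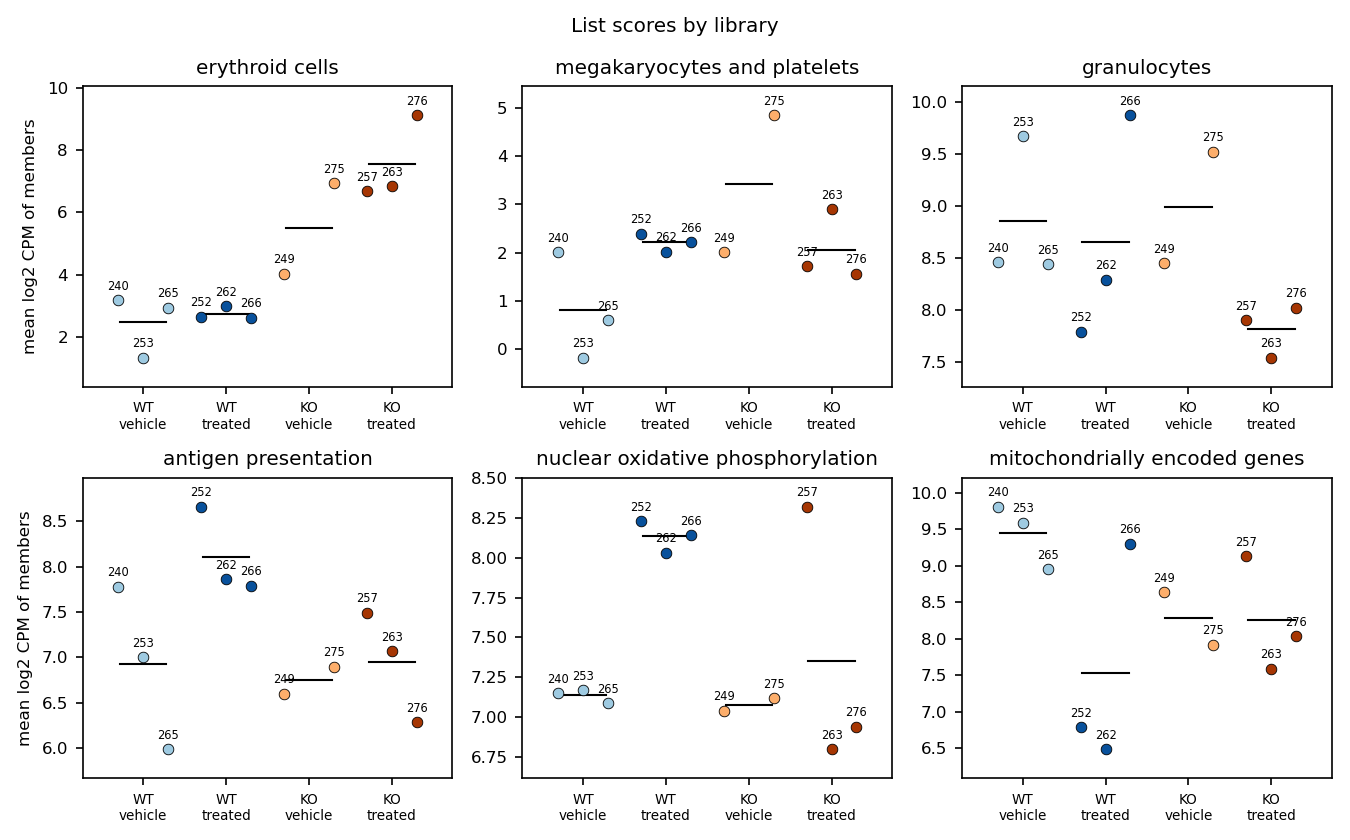
Mean log2 CPM of the members of 6 gene lists in each library (points, labelled with the library number) by group, with the group mean as a bar; y axes differ between panels and do not start at 0. KO treated 276 is highest for erythroid genes (9.12), KO vehicle 275 for megakaryocyte genes (4.86) and WT treated 266 for granulocyte genes (9.87), while KO treated 257 stands with the WT treated libraries for nuclear oxidative phosphorylation (8.32).

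Stem cell genes split. Of 35 tested, 24 lay above 0 and 11 below, with a median of 0.49, and 2 in each direction were at an unadjusted p under 0.05. Mllt3, a regulator of stem cell maintenance, was at 13.2, 4.55 and 17.4 CPM in WT vehicle, 12.9, 9.52 and 6.61 in WT treated, 3.22 and 5.48 in KO vehicle and 18.1, 25.7 and 41.6 in KO treated libraries (2.98 ± 0.95). All 3 KO treated libraries lay above both KO vehicle libraries, and the WT groups overlapped. Etv6, a repressor needed by adult stem cells, was at 132 and 107 CPM in KO vehicle and 125, 191 and 126 CPM in KO treated libraries, against 89.6, 182 and 185 CPM in WT vehicle and 88, 65 and 52.6 CPM in WT treated ones (1.45 ± 0.53). Slamf1 was at 0 in WT vehicle, 0.217, 1.59 and 2.48 CPM in WT treated, 1.92 and 2.5 in KO vehicle and 0, 4.16 and 1.63 in KO treated libraries, so KO treated 257 was at 0 too. The median of the list was 0.99 without WT vehicle 253, 0.03 without WT vehicle 240 and 0.04 with the outside-gene read share as covariate. Stem cell genes summed to 1850 to 3800 CPM in WT vehicle, 3380 to 6080 in WT treated, 2070 and 3400 in KO vehicle and 2050 to 6400 in KO treated libraries.

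For the CXCL12 and CXCR4 axis, 12 of 20 genes lay above 0, none at an unadjusted p under 0.05, with a median of 0.36 (-0.05 without WT vehicle 253 and 265, and 0.73 with the outside-gene covariate). Cxcr4, the receptor, was at 75.1, 20.1 and 18.7 CPM in WT vehicle and 53.5, 71.8 and 68.7 CPM in WT treated libraries, and at 63.1 and 106 CPM in KO vehicle and 34.3, 39.9 and 82.3 CPM in KO treated libraries. The groups overlapped in both niches, with WT vehicle 240 above all 3 WT treated libraries (interaction -1.46 ± 0.81, adjusted p = 0.77). Cxcl12 was 2.26 ± 2.96 (adjusted p = 0.911), and -4.26 without WT vehicle 240, the library with its highest level. Arrb1, an arrestin that ends receptor signalling, had 1.33 ± 0.94 (adjusted p = 0.806), and the small GTPase Rac2, which drives migration, -1.01 ± 0.60 (adjusted p = 0.791).

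p38 MAPK genes divided evenly, with 15 of 28 above 0 and 13 below. The median was 0.15 with TMM scaling and -0.05 with upper-quartile scaling, 0.45 without KO treated 257, and ran from -0.08 (without KO treated 276) to 0.70 (outside-gene covariate) over the alternatives. Mapk14, the main p38 kinase, was at 209, 140 and 216 CPM in WT vehicle and 79.1, 80 and 65.1 CPM in WT treated libraries. In the KO niche it was at 232 and 216 CPM with vehicle and 74.7, 179 and 205 CPM with treatment. Treated libraries lay below vehicle in both niches without overlap, by the most in KO treated 257 within its niche, and the difference between the niches was 0.78 ± 0.55 (adjusted p = 0.806). Tab2, an adaptor that activates the kinase upstream of p38, was at 47.8, 52.3 and 67.6 CPM in WT vehicle, 53.4, 27.2 and 36.3 in WT treated, 23.9 and 22.2 in KO vehicle and 66.7, 39.3 and 26.7 in KO treated libraries (1.46 ± 0.60). Its KO treated libraries all lay above KO vehicle, and its WT groups overlapped. The 2 negative genes of the list at an unadjusted p under 0.05 were both at 0 in WT vehicle: Hspb1, a small heat shock protein downstream of p38, was at 0.179 and 0.818 CPM in KO vehicle and 0.124, 0.163 and 2.38 CPM in WT treated libraries, and Mapk12, another p38 kinase, was at most 3.31 CPM in any library.

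Signalling targets below FLT3 showed small medians. FLT3 and STAT5 targets lay above 0 in 14 of 19 cases with a median of 0.29, which was -0.23 without WT vehicle 240 and 0.70 without KO vehicle 249. Stat5b was at 75.5, 70.1 and 101 CPM in WT vehicle, 28.6, 29.8 and 19.3 in WT treated, 78.5 and 73.9 in KO vehicle and 30.1, 120 and 82.3 in KO treated libraries (1.69 ± 0.66). Its close relative Stat5a, which can share reads with it, had 1.66 ± 0.79 (adjusted p = 0.767). Flt3 itself had an interaction of 0.08 ± 0.91 (95% interval -1.90 to 2.07, adjusted p = 1), with levels of 340, 70.6 and 148 CPM in WT vehicle and 102, 222 and 68.5 CPM in KO treated libraries, and its sign turned in 7 alternatives. Genes of ERK output, such as the feedback inhibitors, lay above 0 in 8 of 13 cases with a median of 0.59, which was -0.05 without WT vehicle 265 and 1.14 without WT vehicle 253.

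AP-1 and other immediate early genes lay above 0 in 16 of 19 cases (84.2%), 2 of them at an unadjusted p under 0.05, with a median of 0.72 (0.59 with upper-quartile scaling). Fos, a subunit of the AP-1 factor, was at 468, 466 and 489 CPM in WT vehicle and 251, 144 and 248 CPM in WT treated libraries, without overlap. KO libraries read 159 and 200 CPM with vehicle and 306, 216 and 115 CPM with treatment, and overlapped (1.39 ± 0.55). Jun, its partner, read 309, 180 and 337 CPM, 113, 91.2 and 157 CPM, 132 and 145 CPM and 293, 182 and 71.4 CPM in the order WT vehicle, WT treated, KO vehicle and KO treated (1.58 ± 0.69). In both genes KO treated 276 was the lowest KO library and WT vehicle the highest group by mean. The AP-1 median was 0.08 with the outside-gene read share as covariate and 0.12 without KO vehicle 249, with 1.05 without KO vehicle 275 as the highest. Members of the NF-kB list lay above 0 in 13 of 16 cases with a median of 0.46, none at an unadjusted p under 0.05, and the median was 0.14 without WT vehicle 240 and 1.01 without WT vehicle 253 and 265.

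Genes of the cell cycle lay on both sides of 0. DNA replication genes lay 15 above and 19 below 0 with a median of -0.15, and mitosis genes 14 above and 16 below with -0.18; both medians changed sign in 6 and 5 of the 21 alternatives, respectively. Pola1, the catalytic subunit of DNA polymerase alpha, was at 96.7, 72.6 and 68.8 CPM in WT vehicle, 77.8, 60.2 and 62.3 in WT treated, 47 and 45.1 in KO vehicle and 94, 92.1 and 146 in KO treated libraries (1.51 ± 0.44). Mki67, the proliferation marker, was at 198, 214 and 257 CPM, 183, 134 and 132 CPM, 127 and 186 CPM and 255, 175 and 314 CPM in the same order (1.24 ± 0.46), and KO treated 263 lay inside KO vehicle. Lig1, the replicative DNA ligase, had 1.20 ± 0.50, and Tyms, thymidylate synthase, -1.18 ± 0.48. CDK inhibitors and quiescence genes lay above 0 in 12 of 18 cases with a median of 0.72 (0.34 to 0.90 over the alternatives); Hexim1, an inhibitor of the elongation kinase P-TEFb, had 1.81 ± 0.82. Cdkn1a, the p21 inhibitor that p53 induces, was at 32.8, 12.7 and 2.96 CPM in WT vehicle, 79.4, 64.3 and 55 in WT treated, 27.4 and 19.2 in KO vehicle and 78.9, 26.1 and 15.9 in KO treated libraries. WT treated libraries lay above all WT vehicle libraries, while KO treated ones ran from below to above KO vehicle, with an interaction of -1.24 ± 1.09 (adjusted p = 0.842).

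Genes of the p53 and DNA damage response also divided. Of 25 p53 targets, 10 lay above and 15 below 0, with a median of -0.33 (-0.57 to 0.16 over the alternatives). Trp53inp1, a p53-induced regulator of autophagy and cell death, had 2.25 ± 0.88. Trp53, p53 itself, was at 141, 124 and 126 CPM in WT vehicle, 169, 258 and 210 in WT treated, 229 and 180 in KO vehicle and 184, 142 and 182 in KO treated libraries (-0.98 ± 0.40). Repair and checkpoint genes lay 23 above and 21 below 0 with a median of 0.14 (-0.12 to 0.38 over the alternatives). Atr, the kinase of stalled replication forks, was at 28, 13.6 and 53 CPM in WT vehicle, 17.6, 10.7 and 10.5 in WT treated, 5.77 and 13.9 in KO vehicle and 20.5, 30.4 and 33 in KO treated libraries (2.79 ± 0.86). All 3 KO treated libraries exceeded both KO vehicle libraries, and WT treated 252 overlapped WT vehicle. Brca2, a mediator of recombination repair, had 1.01 ± 0.46. Members of the BCL2 family lay 7 above and 9 below 0, none at an unadjusted p under 0.05.

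Drug handling genes lay above 0 in 18 of 28 cases with a median of 0.42 (0.20 to 0.74 over the alternatives), or 0.51 when genes with an empty group are held at the floor of 3 counts. The 3 positive members at an unadjusted p under 0.05 were Abcb4, described above, and both forms of topoisomerase II, the target of doxorubicin. Top2b, the isoform of resting cells, was at 149, 145 and 115 CPM in WT vehicle and 84.6, 70.7 and 62.4 CPM in WT treated libraries, against 141 and 119 CPM in KO vehicle and 86.8, 207 and 269 CPM in KO treated ones. WT treated libraries lay below WT vehicle without overlap, and in the KO niche 257 lay below and 263 and 276 above vehicle (1.44 ± 0.56). Top2a, the isoform of dividing cells, read 238 and 274 CPM in KO vehicle and 410, 386 and 485 CPM in KO treated libraries, all of the latter higher, and 377, 309 and 226 CPM and 268, 207 and 256 CPM in the WT groups, which overlapped (1.05 ± 0.42).

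Mitochondrial genes of the nuclear and the mitochondrial genome stood on opposite sides. Of 69 nuclear genes of oxidative phosphorylation, 56 lay below 0, 5 of them at an unadjusted p under 0.05, with a median of -0.57 made of a KO response of 0.62 and a WT response of 1.08. Cycs, cytochrome c, was at 118, 118 and 100 CPM in WT vehicle and 458, 360 and 394 CPM in WT treated libraries. KO libraries read 160 and 150 CPM with vehicle and 323, 102 and 147 CPM with treatment, where 257 lay near WT treated and 263 and 276 below vehicle (-1.56 ± 0.56). Sdhb, a subunit of complex II, gave 187, 167 and 195 CPM, 537, 500 and 536 CPM, 204 and 212 CPM and 390, 183 and 181 CPM in the order WT vehicle, WT treated, KO vehicle and KO treated, with 257 apart in the same way (-1.25 ± 0.48). Ndufa9, of complex I, had -1.15 ± 0.44. The median was -1.25 without KO treated 257 and -1.46 with the outside-gene read share as covariate. With the length trend removed it was -0.07, against 0.34 for all genes. All 13 mitochondrially encoded genes lay above 0, none at an unadjusted p under 0.05, with a median of 1.65. It ran from 0.65 (outside-gene read share as covariate) to 3.19 (without WT treated 266, the treated WT library with the most mitochondrial RNA), and was 0.92 without KO treated 257. Mitochondrial reads, ribosomal RNA included, were 3.55%, 2.86% and 15% of the gene counts in WT treated, 17.2% to 27.4% in WT vehicle, 14.2% and 8.79% in KO vehicle and 8.05% to 13.8% in KO treated libraries.

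Protein synthesis and folding genes varied by class. Of 76 cytosolic ribosomal protein genes, 51 lay above 0 with a median of 0.19. It was 0.12 with upper-quartile scaling, -0.73 without KO treated 257 and -1.27 with the outside-gene read share as covariate. With the length trend removed it was 0.64, against 0.34 for all genes. Genes of ribosome assembly lay 19 above and 16 below 0 (median 0.04). ATF4 and unfolded protein response genes lay below 0 in 19 of 25 cases with a median of -0.35, which was -0.66 without KO treated 276. With the length trend removed the median was 0.19, still below the 0.34 of all genes. Sdf2l1, of the endoplasmic reticulum chaperone complex, was at 157, 256 and 165 CPM in WT vehicle, 380, 386 and 522 in WT treated, 355 and 421 in KO vehicle and 384, 109 and 231 in KO treated libraries (-1.84 ± 0.61). Heat shock genes lay 7 above and 7 below 0.

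Immune genes gave a negative median for antigen presentation and a positive one for interferon targets. Of 25 antigen presentation genes, 21 lay below 0, none at an unadjusted p under 0.05, with a median of -0.80 (KO response 0.31, WT response 1.04), and the median stayed between -1.05 and -0.28 in all alternatives. H2-K1, a class I heavy chain, was at 1530, 1440 and 911 CPM in WT vehicle and 2170, 2400 and 1670 CPM in WT treated libraries, against 1240 and 1200 CPM in KO vehicle and 1280, 1090 and 1000 CPM in KO treated libraries (-0.80 ± 0.47, adjusted p = 0.787). WT treated libraries all exceeded WT vehicle and KO groups overlapped. H2-D1 had -0.97 ± 0.55 (adjusted p = 0.773) and H2-Q7 -1.34 ± 0.70 (adjusted p = 0.767); class I genes are near copies of each other, so reads may be split between them. Interferon-stimulated genes lay above 0 in 24 of 35 cases with a median of 0.41, which was -1.12 without WT vehicle 240 and 1.12 without WT vehicle 253 and 265. TGF-beta and BMP genes had a median of 0.45, NRF2 antioxidant genes -0.04 and genes of glycolysis and hypoxia -0.01.

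**Figure D4:**
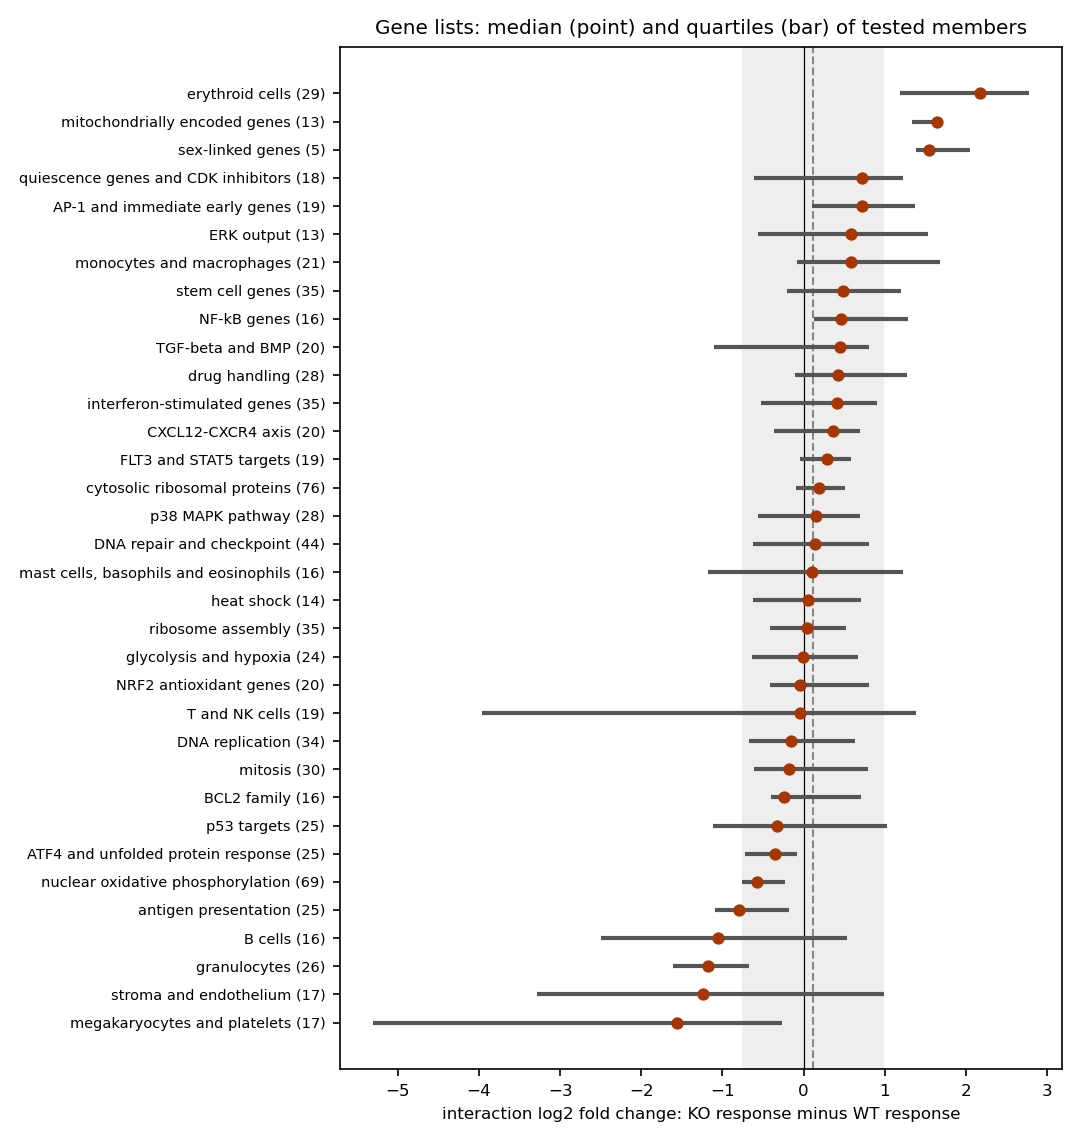
Interaction log2 fold change of 34 gene lists: median (point) and quartiles (bar) of the tested members, with their number in brackets; the dashed line and grey band are the median (0.11) and quartiles of all genes tested. Erythroid genes (2.17) and mitochondrially encoded genes (1.65) lie highest, and megakaryocyte genes (-1.56) lowest.

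Transcript length went with the interaction across genes. With genes of at least 10 CPM on average put into 10 bins by length, the median interaction went from -0.54 in the bin of shortest transcripts (median 992 bases) to 0.79 in the bin of longest (median 8093 bases). Positive genes at an unadjusted p under 0.05 had a median longest transcript of 4735 bases, negative ones 1850.5 and all genes at this level 3293. For each library, length was rank-correlated with log2 CPM after each gene's mean over all libraries was subtracted. Genes within a library share its depth and preparation. This correlation, relative to the other libraries, was -0.29, -0.38 and -0.31 in the WT treated group. It was -0.21 in library 257 of the KO treated group and 0.03 to 0.34 in the 7 others. Removing each library's trend left medians of 0.03 (shortest bin) to 0.55. Of the 343 positive genes, 244 were still at an unadjusted p under 0.05 in the same direction, and of the 186 negative genes, 31. Rb1cc1 (7607 bases) was then at 1.80, Abcb4 (4079 bases) at 4.14, Rnf20 (4312 bases) at 1.66 and Kmt2d (19823 bases) at 1.29. Among the negative genes described above, Sec13 (1599 bases) was then at -0.76, Tor1a (1605 bases) at -0.94, Ostc (1720 bases) at -0.90 and Mmadhc (1351 bases) at -0.57, and none of these 4 was still at an unadjusted p under 0.05, while Clns1a at -1.10, Mtch2 at -1.14 and Dcaf13 at -1.65 were. The same step took Sdhb from -1.25 to -0.59, Ndufa9 from -1.15 to -0.42, Sdf2l1 from -1.84 to -1.13, Brca2 from 1.01 to 0.68, Trp53 to -0.77, Cycs to -1.23, Tyms to -1.07, Ly6g to -2.06, Mki67 to 1.01, Tab2 to 1.60, Top2a to 0.98 and Top2b to 1.12, all of them then at an unadjusted p of 0.05 or more. The model called 0 genes after this step.

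**Figure D5:**
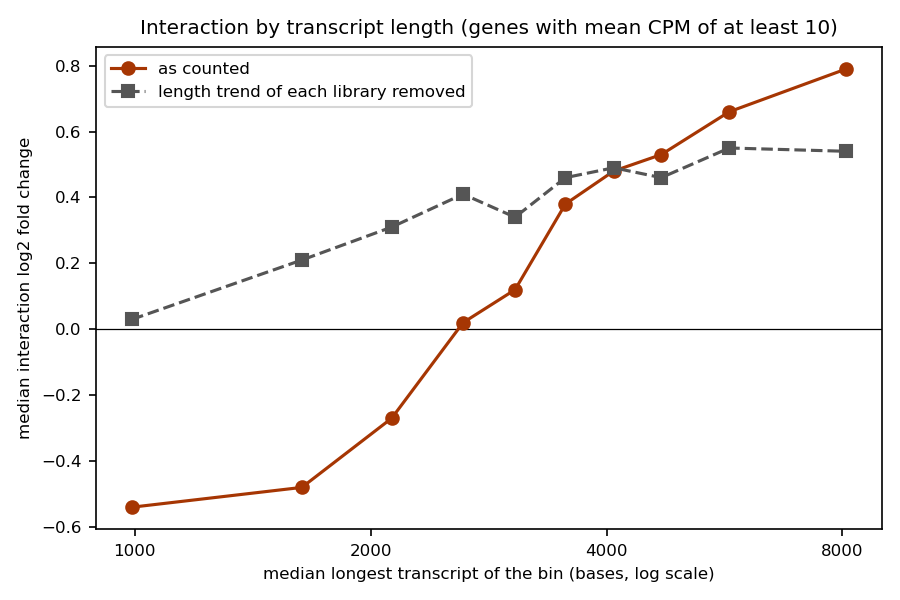
Median interaction log2 fold change (y axis) in 10 bins of genes by longest annotated transcript (x axis, bases, log scale), for genes with a mean of at least 10 CPM, as counted (circles) and after the length trend of each library was removed (squares). The circles run from -0.54 to 0.79 and the squares from 0.03 to 0.55.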

How the data were processed

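Gene expression was measured by RNA-seq in 11 libraries of sorted ST-HSCs in 4 groups. Per the labels' protocols, RNA was extracted with a Qiagen micro kit and amplified by a SMARTer low-input method before Nextera XT tagmentation, which keeps no strand. The submitters' processing notes give GRCm39 and list, without roles, HTSeq (as 0.6.7), STAR 2.7.9a, Trim Galore 0.6.7, bcl2fastq and DESeq2; the annotation release is not given in the sources used here. The deposited table holds raw counts per Ensembl gene for 53700 genes, with no normalization by the authors; 5 HTSeq summary lines were left out. GENCODE annotation on GRCm38 gave symbols for 52093 genes, and lengths for 99.7% of those tested, so no gene coordinates are given.

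In R 4.3.3, edgeR 4.0.16 kept 16639 genes with filterByExpr, scaled libraries by TMM and fitted all 11 libraries in 1 model of 4 groups (robust quasi-likelihood). The contrast was KO treated minus KO vehicle, minus the same in WT. A call needs a Benjamini-Hochberg adjusted p under 0.05 over all genes; SE is the log2 difference divided by the root of its F statistic. CPM uses TMM-scaled totals. Depth was 8.13 to 31.1 M gene counts, without molecular identifiers, so the floor of 3 counts per group covers counting error only. No replicate pair was identical.

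Named genes had no predicted-model symbol and averaged at least 2 in log2 CPM. They were the 15 with the smallest p in each direction, the 8 in each direction with opposite and non-overlapping responses, the 3 with the smallest p in each list, whatever their level, and, in any case, Mki67, Cdkn1a, Mapk14, Flt3, Tet2, Cxcr4 and Cxcl12. Of these, 1 is not reported here. Kit, Cd34, Mpo and Actr6 were named after their values were seen. The 34 lists, the members and these rules were chosen with earlier results of these data known. Alternatives were other scalings and filters, DESeq2 1.42.0, limma 3.58.1 voom, the fit without the robust option, leaving out each library in turn or the pair of WT vehicle libraries 253 and 265, the outside-gene read share as covariate, and removal of each library's lowess trend with length (span 0.3). The scaling and length checks of the non-overlapping genes were chosen after seeing the data.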

Additional observations from a re-analysis of the deposited data

How the results depend on the processing

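With 2 KO vehicle libraries, leaving out 249 or 275 leaves 1, assumed to vary like the other groups. The count of called genes, 0, was 61 with DESeq2 and 0 to 1 when single libraries were left out (1 without WT vehicle 240), and 0 under the other settings tried. DESeq2's adjusted p was missing for 613 genes, which enter no count. The 1050 genes at an unadjusted p under 0.05 became 1634 with no filter, 497 with a filter at a mean CPM of 10, 2636 with limma voom, 2393 with the outside-gene read share as covariate, and 601 to 2266 when single libraries were left out. The causes of these shifts were not tested. No paired analysis was possible because the replicate numbers are library numbers from the titles and the groups share none.

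Of the 137 named genes, the following turned sign. With the outside-gene covariate, Pim1 was at -0.05, Rps15 at -1.13, Rpl28 at -1.16, Rpsa at -0.89, Bak1 at -0.73, Tet2 at 0.64 and Flt3 at -0.27. Without WT vehicle 253 and 265, Spred2 was at -0.96 and Bbc3 at -0.38. Over the fits without single libraries, Rpl28 ran from -0.16 to 2.06, Cxcl12 from -4.26 to 11.06, Tet2 from -0.83 to 0.21 and Flt3 from -0.68 to 0.76. In the same fits Gbp4 ran from -3.53 to 7.03, Prss34 from -11.03 to 4.98, Cd22 from -9.87 to 2.48, Cd8a from -10.51 to 1.90 and Trac from -7.47 to 0.59. With all libraries, WT vehicle held 1 count for Prss34, 3 for Cd22, 1 for Cd8a and 0 for Trac, and KO vehicle 5 for Gbp4. The fitted sizes and signs of these genes rest on few counts or on the count added to zeros. Tet2 was at 0.13 and Prss34 at 0.79 with voom, and Flt3 at -0.04 with upper-quartile scaling and -0.01 with the length trend removed. With DESeq2, 17 named genes passed the threshold that they missed with edgeR, among them Rb1cc1 (adjusted p = 0.00173), Abcb4 (0.00339) and Vcp (0.0364). The number of positive genes with opposite, non-overlapping responses, 76, was 39 with upper-quartile scaling; the cause was not tested.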
